A study of Mus musculus with 6 samples.

Results

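The primary granule enzymes are 5 genes whose transcripts fill the early neutrophil precursor: myeloperoxidase (Mpo) and the serine proteases neutrophil elastase (Elane), proteinase 3 (Prtn3), cathepsin G (Ctsg) and neutrophil serine protease 4 (Prss57). They were chosen by name as the gene columns MPO, ELANE, PRTN3, CTSG and PRSS57 of the deposited tables, 5 of 18011 gene symbols, and were followed through early myeloid, neutrophil progenitor and late neutrophil-like cells of mouse bone marrow. All 5 were present in every sample.

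Lineage-negative (Lin-) haematopoietic stem and progenitor cells, the marrow fraction stripped of cells that carry mature lineage markers, were profiled one by one from 3 Stag2 KO mice (KO1 to KO3) and 3 Stag2 wt mice (WT1 to WT3). Stag2 codes for 1 of the alternative STAG components of cohesin, which extrudes chromatin loops. The sources used here do not state the allele, any Cre driver, the deleted exon, or the age and sex of the animals. Sample numbers follow accession order, and the p-values below measure the spread between these samples.

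Neutrophil precursors make primary (azurophil) granules at the promyelocyte stage and switch the genes for their contents off again as secondary granules form. Myeloperoxidase is a haem enzyme that makes hypochlorous acid from hydrogen peroxide and chloride. The serine proteases are made as inactive precursors, activated by the protease encoded by Ctsc, packed on the proteoglycan serglycin (Srgn) and held in check in the cytosol and outside the cell by inhibitors such as those encoded by Serpinb1a and Slpi. The transcription factors PU.1 (Spi1), C/EBP family members, Myb, Runx1 with Cbfb, and Gfi1 are known regulators of these genes.

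The tables held 16155065 to 36248233 unique molecular identifiers (UMIs, each counting 1 captured transcript molecule) per sample and 2385 to 6407 cells after filtering. Pairs of samples shared 11 to 48 cell barcodes. Stag2 itself stood at 25.2, 23.6 and 20.1 CPM (UMIs scaled to 1 common total per sample) in the 3 KO samples and 53.5, 43.4 and 42.8 CPM in the 3 WT samples, summed over all cells (values run KO1, KO2, KO3 and WT1, WT2, WT3 throughout). The groups did not overlap, and the log2 fold change (KO over WT throughout) was -1.05 (edgeR adjusted p = 6.35e-04). A 3' tag outside a deleted part does not check the deletion. The title code began with XA in all 3 KO samples and WT1, with XG in WT2 and with XN in WT3; the sources used here do not say what it marks.

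In GRCm38, by GENCODE M21, Prss57 lies at chr10:79781474-79790961 on the minus strand, 83514 bases before Prtn3 at chr10:79874476-79883174 on the plus strand. Elane follows Prtn3 after 3072 bases, at chr10:79886247-79888215 on the plus strand. Ctsg lies apart at chr14:56099881-56102574 on the minus strand and Mpo at chr11:87793581-87804413 on the plus strand. Genes on the opposite strand overlap 3 members, namely Fstl3 at Prss57, Plppr3 at Prtn3 and the antisense gene Gm11505 at Mpo. The sources used here do not say whether counting used the strand, so reads from the overlapping stretches cannot be told apart. Prtn3 and Plppr3 overlap only from 79874476 to 79874634, at the GENCODE start of both genes, while the libraries read 3' ends. The RefSeq start site of Prtn3 used for the window below, chr10:79879417-79879716, lies further along and outside Plppr3.

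RefSeq windows from 250 bases before to 50 after the start site (GRCm38.p6) were available for 4 members and are shown because the chromosome 10 neighbours Prtn3 and Elane went separate ways in the results below, while Mpo and Ctsg lie elsewhere. Capitals mark the PU.1 core GAGGAA.
Prtn3 (chr10:79879417-79879716, plus strand): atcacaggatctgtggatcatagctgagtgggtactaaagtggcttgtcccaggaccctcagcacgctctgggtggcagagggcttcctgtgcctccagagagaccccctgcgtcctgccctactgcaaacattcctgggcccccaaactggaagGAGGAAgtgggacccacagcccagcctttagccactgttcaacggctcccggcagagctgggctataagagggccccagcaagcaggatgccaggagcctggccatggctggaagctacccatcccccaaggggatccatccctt
Elane (chr10:79886062-79886361, plus strand): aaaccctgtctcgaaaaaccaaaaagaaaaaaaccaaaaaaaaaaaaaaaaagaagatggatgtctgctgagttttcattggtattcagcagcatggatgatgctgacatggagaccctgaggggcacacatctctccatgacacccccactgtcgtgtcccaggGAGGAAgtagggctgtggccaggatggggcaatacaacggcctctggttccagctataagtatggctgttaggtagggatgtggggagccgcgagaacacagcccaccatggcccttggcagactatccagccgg
Mpo (chr11:87793534-87793833, plus strand): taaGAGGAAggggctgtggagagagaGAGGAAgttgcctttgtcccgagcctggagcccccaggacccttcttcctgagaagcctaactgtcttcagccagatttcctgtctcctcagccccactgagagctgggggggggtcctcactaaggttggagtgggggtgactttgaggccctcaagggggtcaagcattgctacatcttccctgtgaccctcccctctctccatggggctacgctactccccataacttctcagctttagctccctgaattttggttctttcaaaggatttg
Ctsg (chr14:56102525-56102824, minus strand): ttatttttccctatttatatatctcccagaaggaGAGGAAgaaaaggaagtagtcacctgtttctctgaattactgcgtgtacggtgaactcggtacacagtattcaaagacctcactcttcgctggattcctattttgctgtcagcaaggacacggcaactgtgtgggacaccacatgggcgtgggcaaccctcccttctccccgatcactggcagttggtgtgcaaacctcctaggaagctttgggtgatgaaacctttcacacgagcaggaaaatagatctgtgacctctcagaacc

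The PU.1 core GAGGAA, or its complement on the other strand, was in all 4 windows, against 28.28% of 32851 RefSeq windows of this length. It stood at -95 in Prtn3, -85 in Elane, -247 and -224 in Mpo and -216 in Ctsg, counted in bases from the start site. The MYB core AACNG, on either strand, was in all 4 windows and in 80.29% of all windows. The RUNX core TGTGGT, on either strand, was in the Ctsg window alone of these 4 and in 16.76% of all windows, and the C/EBP motif TTNNGNAA, on either strand, was in none of the 4 and in 40.68% of all windows. No match of 1 motif overlapped that of another in these windows, and a match describes letters, not binding.

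Cells were grouped by clustering without the 5 members. Cluster 5 met the marker rule as neutrophil progenitor-like, with 15 of 16 markers raised, and held 335, 117 and 224 KO cells and 41, 94 and 349 WT cells. That was 7.76, 4.91 and 6.16% of KO cells and 1.70, 2.21 and 5.45% of WT cells, so the groups overlapped through WT3. Cluster 29 was late neutrophil-like, with 13 of 18 markers raised, and held 74, 37 and 31 KO cells and 3, 4 and 17 WT cells. No cluster was named early myeloid by the full naming rule. Clusters 4, 9, 20 and 26, which scored highest for the early myeloid markers (Cd34, Kit and others) among unnamed clusters, were pooled by a rule chosen after the data were seen. This early myeloid pool held 697, 314 and 559 KO cells and 201, 417 and 681 WT cells. The leading genes of cluster 4 held 4 neutrophil progenitor markers and 0 early myeloid markers, and those of cluster 20 held 1 monocyte marker (F13a1) and 0 early myeloid markers. Cluster 26 had 4 dendritic cell markers raised and 3 early myeloid markers. Clusters are therefore compared by number beside the pool. Cluster 4 made up 46.6, 50.6 and 46.0% of the pool in KO samples and 29.9, 36.2 and 39.4% in WT samples, without overlap. Clusters 9 and 20 were led by cell division genes, and cluster 26 was shallow, with a median of 2437 UMIs per cell.

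Summed over all cells, 4 of the 5 enzymes rose in Stag2 KO marrow, against 3.56% of 12638 genes called higher, and all 5 did not overlap between genotypes, as 30.2% of genes did not. Prss57, a protease with trypsin-like specificity, stood at 211, 181 and 191 CPM in KO samples and 62.8, 79.4 and 102 CPM in WT samples. The change was 1.21 on the log2 scale (SE 0.15; adjusted p = 0.00118 by edgeR), and its highest WT sample lay well under its lowest KO sample. Prtn3 reached 3348, 2748 and 3082 CPM in KO and 1165, 1482 and 1889 CPM in WT samples, a log2 fold change of 0.98 (SE 0.15, adjusted p = 0.00345, edgeR). Mpo (0.71, adjusted p = 0.0318) and Ctsg (0.47, adjusted p = 0.0358) rose less. Elane had 5869, 4639 and 5115 CPM in KO and 1947, 2647 and 4473 CPM in WT samples, and its log2 fold change of 0.75 missed the threshold (edgeR adjusted p = 0.0903). In such sums more cells of a type and more RNA per cell cannot be told apart. When every sample was given the same share of each class, Prss57 (0.64, adjusted p = 1.11e-04) and Prtn3 (0.39, adjusted p = 0.00186) kept their edgeR calls, while Elane stood at -0.01, Ctsg at 0.20 and Mpo at 0.24. Without KO1, KO3 or WT2 in turn, and with cells of at least 2000 UMIs alone, 2 members were called.

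**Figure D1:**
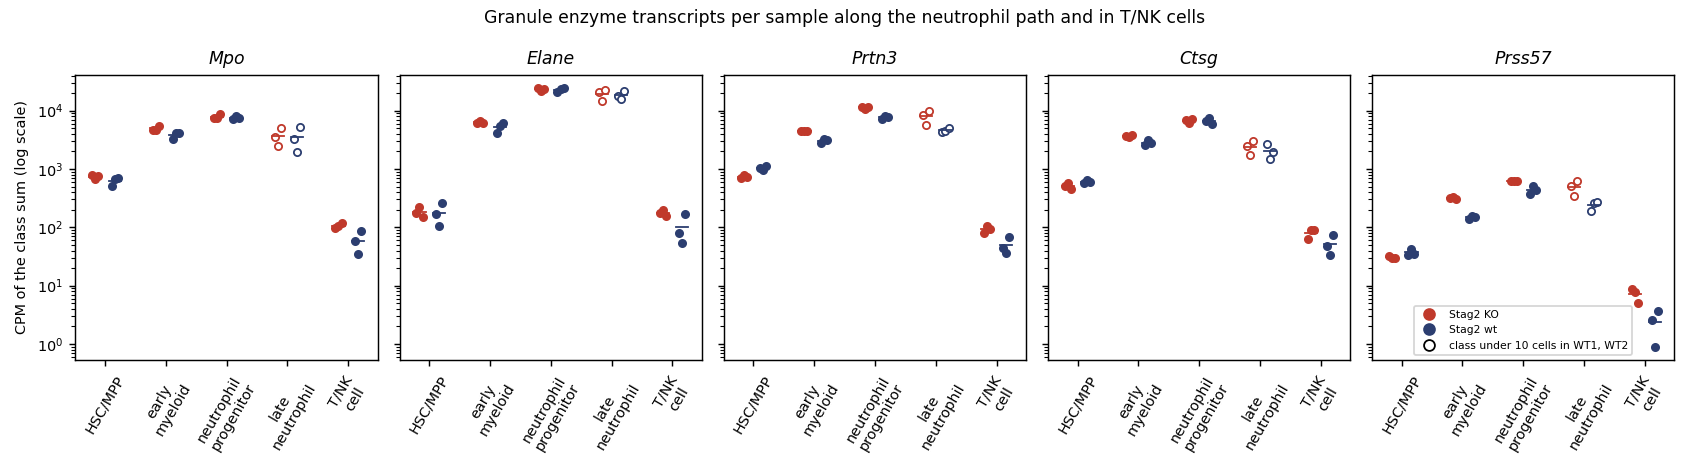
CPM of each enzyme (log axis) in the summed cells of each class, 1 point per sample, Stag2 KO (red) left of Stag2 wt (blue), with the mean of 3 samples as a line and open points for late neutrophil-like cells, of which WT1 and WT2 held 3 and 4. Prtn3 and Prss57 stand higher in KO samples in early myeloid, neutrophil progenitor and late neutrophil-like cells and lower in HSC/MPP cells, while Mpo, Elane and Ctsg overlap in neutrophil progenitor and late neutrophil-like cells.

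Within the early myeloid pool 3 of the 5 enzymes rose, against 1.67% of 10297 genes called higher, and all 5 had KO samples above all WT samples, which held for 23.3% of genes in one direction or the other. Prss57 measured 317, 336 and 305 CPM in KO samples and 140, 158 and 151 CPM in WT samples, about 2.05-fold (log2 fold change 1.04, SE 0.08, edgeR adjusted p = 1.13e-06). Prtn3, which cleaves elastin and other matrix proteins, measured 4489, 4550 and 4566 CPM in KO and 2822, 3290 and 3110 CPM in WT samples (0.51, SE 0.07, edgeR adjusted p = 2.32e-04). Both genes were tight within KO samples and clear of every WT sample. Ctsg, a protease with chymotrypsin-like specificity, had 3685, 3570 and 3812 CPM in KO and 2591, 3082 and 2835 CPM in WT samples (0.32, SE 0.07, edgeR adjusted p = 0.0101).

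Mpo averaged 4949 ± 474 CPM in KO and 3843 ± 547 CPM in WT samples (SD, n = 3 each) in the pool, which is 0.31 on the log2 scale with a 95% interval of 0.11 to 0.51 (adjusted p = 0.0731 by edgeR). Elane averaged 6408 ± 311 CPM in KO and 5258 ± 958 CPM in WT samples (SD, n = 3 each), which is 0.23 with an interval of 0.01 to 0.45 (adjusted p = 0.265 by edgeR). Neither passed the threshold. With the XA prefix as a covariate, or among the XA samples alone, Elane stood at 0.54 and 0.55 and Mpo at 0.55 and 0.56. WT1 is the only WT sample with that prefix, so both fits set the KO samples against WT1 alone. Ctsg kept its call in 14 of 17 alternatives. It lost it without KO3 (0.30, edgeR adjusted p = 0.0866), with the members kept in the clustering (0.24, adjusted p = 0.160) and with doublets kept, where the log2 fold change was 0.01 (adjusted p = 0.983). With doublets kept the same rules put only 150, 74 and 137 KO cells and 59, 133 and 195 WT cells in the pool, and there Prss57 was called but Prtn3 was not (0.30, adjusted p = 0.465).

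By cluster, Prss57 rose in 3 of the 4 clusters, Prtn3 in 2 and the other 3 enzymes in 1. In cluster 4, led by Fkbp11, Alas1 and Gstm1, Prss57 rose (0.75, edgeR adjusted p = 1.60e-05; 0.854% of genes called higher), with 424, 420 and 407 CPM in KO and 241, 239 and 221 CPM in WT samples. Prtn3 rose there by 0.41 (edgeR adjusted p = 6.49e-04), with 5799, 5673 and 5956 CPM in KO and 3977, 4261 and 4083 CPM in WT samples. Elane overlapped in cluster 4, with a log2 fold change of -0.03, and Mpo (0.12) and Ctsg (0.16) were not called. In cluster 9, led by histone and mitosis genes, all 5 rose (0.641% of genes called higher). Elane there stood at 3521, 3725 and 3791 CPM in KO and 1502, 2814 and 2655 CPM in WT samples, 0.59 on the log2 scale (adjusted p = 0.0322 by edgeR). Prss57 in cluster 9 stood at 221, 223 and 223 CPM in KO and 84.0, 86.4 and 90.5 CPM in WT samples (1.27, edgeR adjusted p = 2.49e-07). In cluster 20, led by Ccnb2 and Cenpa, Prss57 rose by 1.28 (edgeR adjusted p = 0.00118; 0.923% of genes called higher) and the other 4 were not called, with Elane at -0.06. In cluster 26 edgeR called 0 of 2075 genes (0%), with 134 at an unadjusted p under 0.05 and 9 called by DESeq2.

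**Figure D2:**
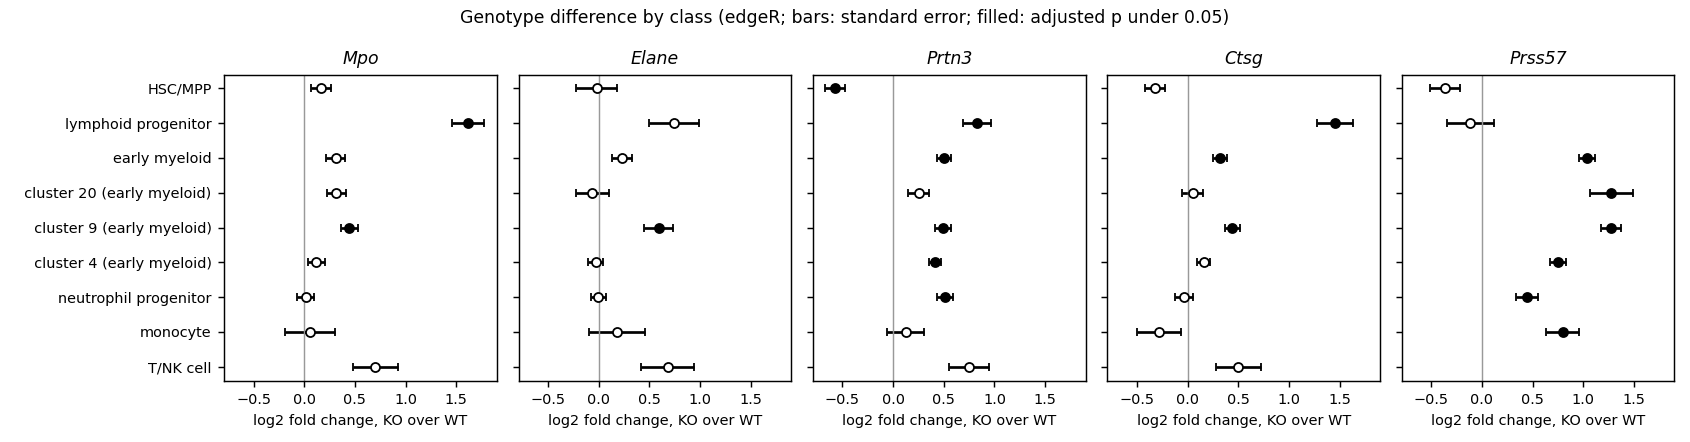
Log2 fold change (Stag2 KO over Stag2 wt) of each enzyme by class, with its standard error as a bar and filled points where the edgeR adjusted p was under 0.05. Prss57 is filled in all 3 early myeloid clusters shown, the neutrophil progenitor and the monocyte class, and Prtn3 lies under 0 in HSC/MPP cells (-0.57) and over 0 in neutrophil progenitors (0.51).

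In neutrophil progenitor-like cells 2 of the 5 enzymes rose. Prtn3 measured 11707, 10791 and 11580 CPM in KO samples and 7160, 8265 and 7735 CPM in WT samples. Prss57 measured 632, 624 and 623 CPM in KO samples and 378, 507 and 443 CPM in WT samples. Both had every KO sample above every WT sample, which 18.8% of genes showed in one direction or the other. Prtn3 rose by 0.51 on the log2 scale (SE 0.08, edgeR adjusted p = 2.71e-04), about 1.43-fold, and Prss57 by 0.45 (SE 0.11, edgeR adjusted p = 0.0211), against 1.08% of 8359 genes called higher. Prtn3 was called in all 17 alternatives. Prss57 lost its edgeR call without KO1, KO3, WT1 or WT3 (adjusted p = 0.0893, 0.0777, 0.0579 and 0.0708) at log2 fold changes of 0.45, 0.45, 0.35 and 0.45.

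The other 3 enzymes overlapped between genotypes in these cells. Elane, which cleaves elastin and bacterial proteins, stood at 24948, 21901 and 23983 CPM in KO and 20527, 23854 and 24387 CPM in WT samples. Its log2 fold change was -0.00, with a 95% interval of -0.16 to 0.16. Mpo stood at 7435, 7557 and 8602 CPM in KO and 7159, 8067 and 7437 CPM in WT samples, with a log2 fold change of 0.01 and an interval of -0.16 to 0.18. Ctsg stood at 6820, 6039 and 7088 CPM in KO and 6531, 7456 and 5805 CPM in WT samples, with a log2 fold change of -0.03 and an interval of -0.22 to 0.15. The intervals of all 3 lie under the 0.51 of Prtn3.

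Late neutrophil-like cells were too few for a test. Prtn3 stood at 8588, 5763 and 9737 CPM in KO and 4273, 4535 and 5127 CPM in WT samples there, and Prss57 at 505, 345 and 615 CPM in KO and 194, 263 and 270 CPM in WT samples. Those 2 genes did not overlap, on 3 and 4 cells in WT1 and WT2, and neither did 14.9% of the 3682 genes that averaged at least 20 CPM there. Mpo had 3521, 2484 and 4988 CPM in KO and 3242, 1994 and 5174 CPM in WT samples, under its neutrophil progenitor level in every sample. Ctsg also stood under its neutrophil progenitor level in every sample, at 2485, 1710 and 3059 CPM in KO and 2704, 1512 and 1977 CPM in WT samples. Elane, at 20760, 14826 and 22341 CPM in KO and 17942, 15884 and 21847 CPM in WT samples, overlapped between genotypes.

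The genotype difference was set against the stage by taking each sample's neutrophil progenitor level minus its early myeloid pool level, in log2 CPM. Prss57 climbed by 1.01, 0.89 and 1.05 in KO samples and by 1.39, 1.69 and 1.54 in WT samples, so the climb was smaller in every KO sample. The difference was -0.56 (SE 0.13, limma adjusted p = 0.334, unadjusted p = 0.00507). Ctsg (-0.34), Mpo (-0.29) and Elane (-0.23) also climbed less on average in KO samples, and the difference for Prtn3 was 0.02 (SE 0.11). By limma 0 of 8327 genes (0%) passed, with 829 at an unadjusted p under 0.05. An edgeR interaction term with sample as a block called 4 members, Prss57 (-0.58, adjusted p = 2.07e-07), Ctsg (-0.34), Mpo (-0.28) and Elane (-0.23), against 2.81% of genes. The larger share of cluster 4 in the KO pool stands beside this comparison, and its part in the result was not tested.

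Pool and neutrophil progenitor cells together were also cut into 5 bins of equal size by their neutrophil progenitor marker score, which used none of the 5 members. All 5 enzymes were higher in each following bin in both genotypes' means. Prss57 was higher in every KO sample than in any WT sample in all 5 bins, by 0.58, 0.90, 0.70, 0.54 and 0.41 log2 units from the lowest bin to the highest. Prtn3 overlapped in the lower bins (-0.09 and 0.00) and was higher in all KO samples in the upper 3, by 0.29, 0.41 and 0.48. Elane was lower in every KO sample in bins 1, 2 and 4, by -0.29, -0.82 and -0.19, and overlapped in bins 3 and 5. Mpo and Ctsg overlapped in all 5 bins. Of all genes averaging at least 20 CPM, 20.1, 21.8, 17.5, 18 and 18.3% did not overlap in bins 1 to 5. With 3 samples a group the smallest exact permutation p is 0.1, which each bin without overlap reached. The score held Serpinb1a, Cebpe, Alas1 and Cd63, which differed by genotype, and WT1 had 11 cells in the highest bin.

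**Figure D3:**
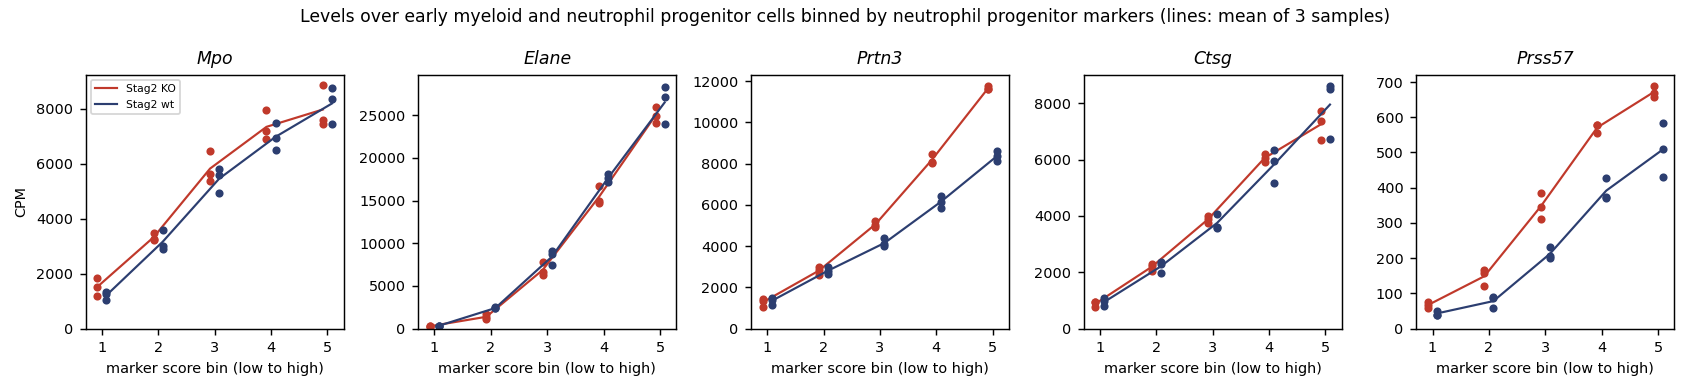
CPM of each enzyme in 5 bins of early myeloid and neutrophil progenitor cells ordered by marker score, 1 point per sample, Stag2 KO (red) drawn left of Stag2 wt (blue), lines joining the means of 3 samples. The Prtn3 lines part over bins 3 to 5 and the Prss57 lines are apart in all bins, while the Mpo and Ctsg points overlap in every bin.

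The neighbours Prtn3 and Elane were set against each other as the ratio of their UMIs within a sample, which cancels the amount of RNA. In neutrophil progenitors the log2 ratio of Prtn3 to Elane was -1.09, -1.02 and -1.05 in KO samples and -1.52, -1.53 and -1.66 in WT samples. The groups lay 0.51 apart, against an SD of 0.04 among KO and 0.08 among WT samples (exact permutation p = 0.1, 2-sided, the smallest possible). In late neutrophil-like cells it was -1.27, -1.36 and -1.20 in KO and -2.07, -1.81 and -2.09 in WT samples, and in cluster 4 it was 0.44 higher in KO, both without overlap. The ratio overlapped in the early myeloid pool (0.26 apart, exact permutation p = 0.2), cluster 20 (0.36), cluster 9 (-0.15), cluster 26 (-0.16) and HSC/MPP cells (-0.64). The ratio of Prtn3 to Mpo likewise stood at 0.65, 0.51 and 0.43 in KO and 0.00, 0.04 and 0.06 in WT neutrophil progenitors. Mpo to Elane (0.01 apart) and Ctsg to Elane (-0.03 apart) overlapped there. In T/NK-like cells, which read free RNA, the ratio of Prtn3 to Elane overlapped (-0.03 apart, exact permutation p = 0.9).

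Per cell, every cell was thinned to 2000 UMIs so that depth did not set the count, which left out 20, 10 and 15 KO cells and 7, 46 and 47 WT cells of the early myeloid pool. At least 1 Prss57 UMI was then seen in 36.2, 40.8 and 34.2% of pool cells in KO samples and in 12.4, 20.8 and 20.5% in WT samples. Without thinning the shares were 73.7, 76.8 and 72.8% in KO and 51.2, 51.8 and 53.2% in WT samples. In T/NK-like cells, which should lack the gene, the thinned share was 0.824, 1.80 and 0.488% in KO and 0, 0.170 and 1.09% in WT samples, where 0 of 422 cells has an exact upper bound of 0.870%. Before thinning, median depth was 16348, 19018.5 and 16470 UMIs in KO and 16134, 16106 and 11042 UMIs in WT pool cells, and 3115, 3256 and 2968 UMIs in KO and 3226, 3302 and 2270 UMIs in WT T/NK-like cells. The thinned shares of the other 4 were also higher in every KO sample of the pool. The mean was 89.5% in KO and 79.3% in WT samples for Mpo, 74.7% in KO and 61.5% in WT for Elane, 88.6% in KO and 83.7% in WT for Prtn3, and 84.1% in KO and 78.3% in WT for Ctsg (exact permutation p = 0.1 each, the smallest possible).

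In neutrophil progenitors Mpo, Elane, Prtn3 and Ctsg were seen in at least 99.7% of thinned cells of every sample. Prss57 was the member that varied, in 69.7, 69.2 and 67.0% of cells in KO and 46.3, 61.7 and 56.7% in WT samples. All 5 members were seen together in 69.4, 69.2 and 67.0% of KO and 46.3, 61.7 and 56.7% of WT neutrophil progenitor cells. In the pool all 5 were seen together in 32.6, 38.5 and 31.6% of KO cells and 9.28, 17.5 and 18.6% of WT cells.

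Together the 5 enzymes took 5.15, 4.69 and 5.19% of all UMIs in KO neutrophil progenitors and 4.18, 4.81 and 4.58% in WT neutrophil progenitors, which overlapped. In the early myeloid pool they took 1.94, 1.99 and 2.04% in KO and 1.30, 1.63 and 1.63% in WT samples, without overlap. Among pool cells the levels of Mpo, Elane, Prtn3 and Ctsg followed each other, with median rank correlations of 0.72 to 0.78 over the 6 samples, and 0.37 to 0.43 with the sparser Prss57. Among neutrophil progenitor cells the same pairs stood at 0.00 to 0.23. Those correlations used the thinned counts, and they describe cells that share a library.

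In HSC/MPP cells, the stem and multipotent progenitor cluster 0, 1 of the 5 enzymes fell and 0 rose. Prtn3 measured 690, 778 and 718 CPM in KO samples and 1036, 945 and 1106 CPM in WT samples, and fell by 0.57 on the log2 scale (SE 0.10, edgeR adjusted p = 0.00128; 1.49% of genes called lower). Ctsg had 514, 567 and 451 CPM in KO and 586, 647 and 590 CPM in WT samples, and Prss57 had 32.5, 29.7 and 29.6 CPM in KO and 34.1, 42.9 and 34.3 CPM in WT samples. Both lay lower in every KO sample, as Prtn3 did (17.7% of genes did not overlap), but were not called (edgeR adjusted p = 0.116 and 0.291). Mpo (0.17) and Elane (-0.02) overlapped. The Prtn3 call held in all 11 alternatives tried, at log2 fold changes of -0.65 to -0.53. Elane in these cells was 0.96 to 2.08 times its T/NK level, at or near the free RNA level.

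In lymphoid progenitor-like cells Mpo had 759, 709 and 949 CPM in KO and 162, 269 and 328 CPM in WT samples (1.62, edgeR adjusted p = 6.31e-07; 0.382% of genes called higher). Ctsg rose there by 1.46 (edgeR adjusted p = 1.78e-05) and Prtn3 by 0.83 (edgeR adjusted p = 6.98e-04), while Prss57 overlapped (-0.12). In monocyte-like cells Prss57 had 47.1, 42.7 and 57.1 CPM in KO and 28.2, 32.3 and 23.4 CPM in WT samples, and rose by 0.80 (edgeR adjusted p = 0.0113; 1.84% of genes called higher). The other 4 overlapped in monocyte-like cells.

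Free RNA was read from T/NK-like cells, which do not make these enzymes. Elane stood there at 176, 199 and 158 CPM in KO and 80.4, 54.5 and 166 CPM in WT samples, and Mpo at 97.9, 105 and 119 CPM in KO and 57.9, 34.9 and 85.3 CPM in WT samples. Mpo and Prtn3 were higher in every KO sample (22.1% of genes did not overlap), Elane and Ctsg overlapped through WT3, and 0 of the 4 tested members were called by edgeR or DESeq2, against 1.29% of 7575 genes called higher by edgeR. All 4 had an unadjusted p under 0.05, and without WT3 all 4 were called. Prss57 was under the filter, with 12, 9 and 4 UMIs in KO and 4, 2 and 9 UMIs in WT samples. As a share of the sample's own level over all cells, the T/NK level was 3.81 ± 0.49% in KO and 3.58 ± 1.38% in WT samples for Mpo (SD, n = 3 each; exact permutation p = 0.9) and between 2.93 and 3.73% on average for the others, with overlap for all 5. The members stood 34.0 to 181 times above the T/NK level in the early myeloid pool and 67.6 to 582 times above it in neutrophil progenitors. Both upper ends are Prss57 in WT2, where the T/NK level rests on 2 UMIs. The highest values of the other members were 120 (Mpo, pool) and 438 (Elane, neutrophil progenitors). UMIs of the enzymes were also seen in other classes off the neutrophil path, and some members were called there. Not all of these levels matched those of T/NK-like cells. Prtn3 stood at 204 CPM in dendritic cluster 11 and 150 CPM in megakaryocyte cluster 17, against 56.8 to 69.3 CPM in the T/NK clusters. In dendritic clusters 7 and 19 it stood at 82.4 and 70.3 CPM. Whether such levels were free RNA was not tested. Mpo rose in early erythroid cells (0.77, edgeR adjusted p = 0.0169; 0.75% of genes called higher), at 81.5, 106 and 120 CPM in KO and 55.8, 42.5 and 71.2 CPM in WT samples. In megakaryocyte-like cells Mpo also rose (0.89, edgeR adjusted p = 0.0359; 0.271% of genes called higher). In dendritic-like cells Ctsg (0.79, edgeR adjusted p = 0.00786) and Prtn3 (0.64, edgeR adjusted p = 0.0475) rose, against 2.22% of genes called higher. In clusters 3 and 21, left unnamed, Mpo (2.04), Ctsg (1.84) and Prtn3 (0.70) rose, against 17.7% of genes called higher. The edgeR adjusted p was 6.85e-06, 1.10e-06 and 0.0246, and Elane (0.56) was not called. Cluster 3 was almost all KO cells, and the part of this makeup was not tested. Prtn3 in megakaryocyte-like cells was 4.56% of the sample's own level in KO and 10.7% in WT samples. Those shares did not overlap (exact permutation p = 0.1, the smallest possible). Prtn3 itself stood there at 129, 154 and 130 CPM in KO and 158, 163 and 143 CPM in WT samples. Those CPM values overlapped (log2 fold change -0.20, edgeR adjusted p = 0.673). Subtracting the T/NK level left the same counts of members called in the pool (3) and in neutrophil progenitors (2).

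**Figure D4:**
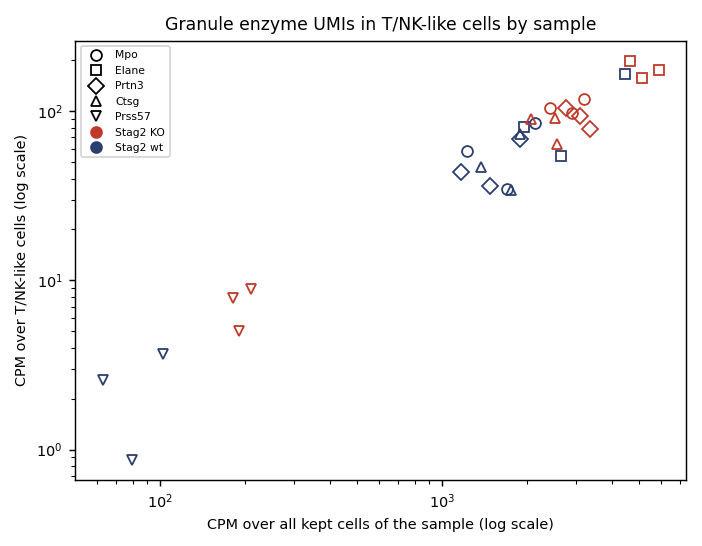
CPM of each enzyme over T/NK-like cells against CPM over all kept cells of the same sample (both log axes), 1 point per gene and sample, Stag2 KO red and Stag2 wt blue. Levels in T/NK-like cells are a few percent of the sample's own level in both genotypes, 3.81% in KO and 3.58% in WT samples for Mpo.

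Most UMIs of the 5 enzymes lay in the early myeloid pool, with 41.2, 47.2 and 45.0% in KO and 45.0, 43.7 and 34.0% in WT samples, and in neutrophil progenitors, with 43.5, 37.1 and 41.2% in KO and 31.4, 33.5 and 50.4% in WT samples. Late neutrophil-like cells held 7.01, 5.81 and 4.85% in KO and 2.11, 0.491 and 1.74% in WT samples, and monocyte-like cells held 1.31, 2.42 and 0.843% in KO and 5.10, 8.45 and 3.70% in WT samples. Basophil/mast-like cells held 3.54, 3.76 and 4.49% in KO and 9.57, 9.34 and 6.18% in WT samples. The late neutrophil share was higher, and the monocyte and basophil/mast shares lower, in every KO sample. Of Ctsg alone, basophil/mast-like cells held 13.2% in KO and 27.2% in WT samples on average. Unnamed cluster 3 lay outside this class, though it shared the leading genes Ccl3, Ccl6, C3ar1, Lilrb4a and Gm12840 with cluster 1 of the class. It held 490, 281 and 507 KO cells and 7, 3 and 3 WT cells. The share of cells in the class therefore depends on how cluster 3 is named. The clusters left unnamed, cluster 3 among them, held 0.468, 0.613 and 0.496% of Ctsg UMIs in KO samples. In WT samples they held 0.103, 0.0116 and 0.0164%. Of the UMIs of all 5 members they held 0.234, 0.319 and 0.284% in KO and 0.0812, 0.0102 and 0.0255% in WT samples. The UMI shares above move by no more than these values with that name. As named, the basophil/mast class was 12.4, 11.4 and 14.3% of KO cells and 23.7, 26.8 and 27.9% of WT cells. Within it Mpo (0.86), Prtn3 (0.63) and Elane (0.52) rose (edgeR adjusted p = 5.37e-04, 5.37e-04 and 0.0477; 7.83% of genes called higher), while Ctsg stood at 0.02. The clusters of this class differed by genotype. Cluster 1 held 2, 5 and 3 KO cells and 301, 574 and 910 WT cells, at 75.1 CPM of Mpo. Cluster 12 held 303, 159 and 300 KO cells and 4, 3 and 4 WT cells, at 1381 CPM of Mpo. Cluster 14, with 18, 4 and 27 KO cells and 96, 181 and 355 WT cells, stood at 1785 CPM. Cells of the class were deeper in KO samples, with a median of 6040 to 6410 UMIs, against 2026 to 3136 UMIs in WT samples. The parts of cluster makeup and depth were not tested.

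Among 12 genes for the maturation, storage and inhibition of these proteases, 0 rose and 2 fell in neutrophil progenitors. The median was -0.16, against -0.00 over all genes, and 1.45% of genes were called lower. Both genes that fell encode inhibitors. Serpinb6a, another inhibitor gene of the list, stood at -0.18 there and 0.05 in the pool and was called in neither. Slpi, the secretory leukocyte protease inhibitor, which blocks elastase and cathepsin G, had 73.6, 73.3 and 78.2 CPM in KO and 258, 244 and 277 CPM in WT samples (-1.84, SE 0.11, edgeR adjusted p = 3.15e-10). Serpinb1a, a cytosolic inhibitor of elastase, cathepsin G and proteinase 3, had 329, 271 and 325 CPM in KO and 563, 750 and 759 CPM in WT samples (-1.22, SE 0.12, edgeR adjusted p = 5.22e-07). KO samples lay under every WT sample for Slpi and Serpinb1a, and both calls held in all 17 alternatives. In late neutrophil-like cells Serpinb1a had 613, 645 and 645 CPM in KO and 1733, 1643 and 1737 CPM in WT samples, and Slpi had 24.1, 35.0 and 54.1 CPM in KO and 314, 65.7 and 123 CPM in WT samples. In the early myeloid pool Slpi (-2.15, edgeR adjusted p = 8.57e-08) and Serpinb1a (-0.61, edgeR adjusted p = 8.34e-04) fell, while the granule membrane gene Cd63, named after its value was seen, rose by 0.67. Slpi was not particular to the neutrophil path, at -2.71 in HSC/MPP cells. Ctsc, the activating protease, and Srgn, the storage proteoglycan, were called in neither.

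**Figure D5:**
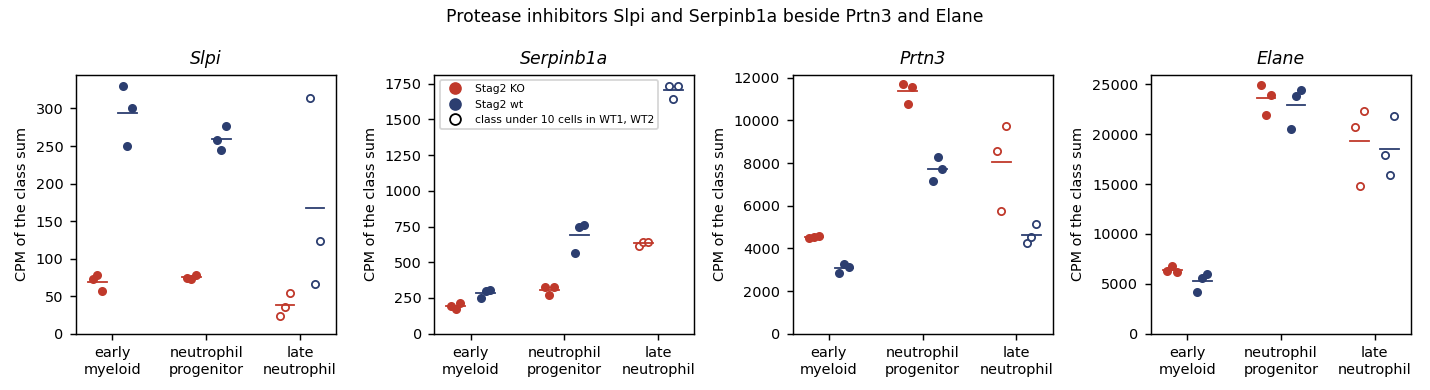
CPM of the inhibitors Slpi and Serpinb1a beside Prtn3 and Elane in early myeloid, neutrophil progenitor and late neutrophil-like cells, 1 point per sample, Stag2 KO (red) left of Stag2 wt (blue), lines at the mean, open points where WT1 and WT2 held 3 and 4 cells. In neutrophil progenitors both inhibitors are lower and Prtn3 higher in every KO sample, while Elane overlaps.

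Of 9 known regulators tested in neutrophil progenitors 1 rose and 0 fell (median 0.12). Cebpe, the C/EBP factor of the later granulocyte stages, had 427, 399 and 451 CPM in KO and 278, 301 and 342 CPM in WT samples (0.41, edgeR adjusted p = 0.0343), and kept its call in 8 of 17 alternatives. In the pool 3 of 10 rose and 2 fell (median 0.13, against 0.01 over all genes; 3.75% of genes were called lower). Cebpa (0.42), Cebpe (0.48) and Myb (0.34) rose, and the monocyte factors Irf8 (-1.04) and Klf4 (-1.98) fell. The call was kept in 10 of 17 alternatives for Cebpa and 11 of 17 for Cebpe and Myb. Within cluster 4, 0 of 9 regulators rose and 1 fell (1.85% of genes called lower). Within cluster 9, 1 of 9 rose and 0 fell (0.641% of genes called higher). In cluster 20, 0 of 9 rose and 3 fell (2.17% of genes called lower). All but Cebpe were named after their values were seen. Spi1, which encodes PU.1, stood at -0.07 in the pool and 0.03 in neutrophil progenitors.

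Of 8 haem synthesis genes 0 passed in neutrophil progenitors (median 0.04) and 1 rose in the pool (median 0.08), Alas1, the first enzyme of the pathway, by 0.53 (edgeR adjusted p = 6.94e-04). Of 9 other primary granule or lysosomal genes 0 passed in neutrophil progenitors (median 0.16), where lysozyme (Lyz2) stood at 0.41 (edgeR adjusted p = 0.0726), and Hexa alone fell in the pool (-0.50, median -0.13). Of the secondary granule genes, 2 of 7 rose in neutrophil progenitors (median 0.65) and 5 of 8 in the pool (median 1.28), and 0 fell. In neutrophil progenitors Chil3 had 127, 140 and 120 CPM in KO and 7.41 to 33.9 CPM in WT samples (2.19), and Lcn2 had 76.4, 87.3 and 74.7 CPM in KO and 21.3 to 25.2 CPM in WT samples (1.73; edgeR adjusted p = 1.15e-07 for each). In the pool Chil3 (2.61), Camp (2.21), Ngp (2.19), Lcn2 (1.91) and Pglyrp1 (0.65) rose. Genes of this list also rose in other classes. In HSC/MPP cells 3 of 5 rose (Chil3 2.87, Camp 2.29 and Ngp 2.28) and 1 other fell. There 0.621% of genes were called higher and 1.49% lower. In T/NK-like cells 2 of 4 rose (median 1.14, 1.29% of genes called higher). The count was 3 of 5 in dendritic-like cells (2.22% of genes called higher) and 1 of 3 in megakaryocyte-like cells (0.271%). Secondary granule genes are also late neutrophil markers, and the larger late neutrophil share of KO samples stands beside them; its part, and that of free RNA, was not tested.

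Of 15 genes around Prss57, Prtn3 and Elane on chromosome 10 that were tested in neutrophil progenitors, 0 passed (median 0.04), and of 16 in the pool 1 rose, Palm (0.57), and 1 fell, Plppr3 (-0.48; median -0.04). Plppr3 overlaps Prtn3 on the other strand, at the GENCODE start of both genes alone. In neutrophil progenitors Plppr3 had 17.2, 22.1 and 13.1 CPM in KO and 35.6, 27.5 and 24.2 CPM in WT samples (-0.73, edgeR adjusted p = 0.0662). It was lower in every KO sample, where Prtn3 was higher. The only neighbour of Ctsg tested, the basophil protease gene Mcpt8, fell in neutrophil progenitors (-0.68, edgeR adjusted p = 0.00413). It also fell in HSC/MPP cells (-0.81), in monocyte-like cells (-1.16) and over all cells (-1.20). The basophil/mast class, as named without cluster 3, was a smaller share of KO samples, and its part was not tested. In neutrophil progenitors 0 of 3 neighbours of Mpo passed.

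Over 79 sums of class and sample (15 classes), the 8 genes whose log2 level most resembled the mean of the 5 members were Alas1 (Pearson r = 0.95), Dmkn, Gstm1, Anxa3, Trem3, Ms4a3, Dbi and Cldn15 (0.88). Sums of 1 sample share a library, and Alas1, Gstm1, Dmkn, Trem3 and Ms4a3 were among the neutrophil progenitor markers. Among the members themselves the closest pair was Mpo with Ctsg (0.97) and the least close Elane with Ctsg (0.81).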

How the data were processed

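The authors deposited, per sample, a table of UMI counts per cell and gene, whole numbers and not normalized. Libraries were 10x Chromium 3' version 2 from polyadenylated RNA, per the labels. The sources used here do not name the aligner, counter, strand setting or build. Cells under 500 genes or over 20% mitochondrial UMIs were dropped, predicted doublets (0.8% per 1000 cells) were removed, and cells were clustered without the 5 members (2000 variable genes, 30 components, 15 neighbours, Leiden resolution 1.0, 37 clusters). A cluster qualified for a type where at least 3 markers and 33.3% of the type's list were raised 2-fold at 20 CPM or more. Among qualifying types the largest share gave the name. The name moved to another qualifying type, or was withheld, where another type had more markers among the 10 leading genes. Ties, and shallow clusters with no marker of the type among those genes, stayed unnamed. Unnamed clusters with a mean early myeloid marker score (z) of at least 0.5 formed the early myeloid pool.

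Raw counts summed per sample and class were tested with edgeR 4.0.16 (quasi-likelihood, TMM, filterByExpr, Benjamini-Hochberg at 0.05), stage differences with limma 3.58.1, and shares with 2-sided exact permutation over 20 assignments of samples (smallest p 0.1), with exact binomial 95% bounds that cover counting error only. A class with under 10 cells in a sample had no test. Alternatives were DESeq2 1.42.0, RLE factors, no low-count filter, the XA prefix as covariate or alone, each sample left out, doublets kept, cells of at least 2000 UMIs, T/NK level subtracted, same class shares, other resolutions and members kept in the clustering; single clusters, and the alternatives for HSC/MPP and lymphoid progenitor cells, were added after seeing the data, as was the test of early myeloid against HSC/MPP cells. Members were named in every class of the path, with up to 4 genes per list by p in neutrophil progenitors and the 8 most similar genes; list genes named for the pool alone were chosen after their values were seen. The members and lists were chosen with earlier results of these data known. The steps were tested on simulated data. Software was Python 3.11.15 and R 4.3.3. The protein sequences and a promoter window of Prss57 were not used here.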

Additional observations from a re-analysis of the deposited data

Results flagged for a closer look

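The genotype difference of 3 members had opposite signs in the early myeloid pool and HSC/MPP cells: every KO sample lay under every WT sample in HSC/MPP cells and above every WT sample in the pool. Of all genes 17.7% did not overlap in HSC/MPP cells and 23.3% in the pool, and in HSC/MPP cells only Prtn3 of these 3 was called by edgeR (adjusted p = 0.116 for Ctsg and 0.291 for Prss57). Taken as each sample's pool level minus its HSC/MPP level in log2 CPM, the difference between KO and WT samples was 1.38 for Prss57 (limma adjusted p = 0.0989), 1.08 for Prtn3 (limma adjusted p = 0.175) and 0.65 for Ctsg (limma adjusted p = 0.338). The climb was larger in 3 of 3 KO samples for each. For Prss57 it was 3.26, 3.45 and 3.35 in KO samples and 1.95, 1.86 and 2.13 in WT samples, and for Prtn3 it was 2.71, 2.53 and 2.69 in KO samples and 1.39, 1.80 and 1.51 in WT samples. In that test limma called 0 of 9344 genes (0%), with 833 at an unadjusted p under 0.05, and DESeq2 was not run on it. The same difference was 0.14 for Mpo and 0.18 for Elane, which overlapped between genotypes in HSC/MPP cells.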

How the results depend on the processing

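Prss57 and Prtn3 kept their calls over all cells in all 15 alternatives, and Prss57 kept its call in the early myeloid pool in all 17. Members called over all cells were 4, 2 with cells of at least 2000 UMIs or the same class shares (Elane then -0.011), and 2 to 5 with 1 sample left out; genes called were 1333, 714 with the XA covariate, 474 among XA samples and 717 to 1410 with 1 sample left out. In the pool 3 members and 558 genes were called. These were 5 and 903 without the low-count filter, 5 and 189 with the XA covariate, 5 and 190 among XA samples, 1 and 122 with doublets kept (Pglyrp1 then -0.44), and 2 to 3 members with 1 sample left out. Cluster 4 alone gave 247 genes (2 members, Elane -0.031), cluster 9 gave 5 members and 184 genes, cluster 20 gave 1 and 198 (Elane -0.061, Alas1 -0.027), and cluster 26 gave 0 and 0 (Plppr3 0.13, Cebpa -0.19). In neutrophil progenitors 2 members were called, 1 to 2 with 1 sample left out, and 211 genes, against 105 by DESeq2, 336 without the filter or at resolution 0.5, 34 with the XA covariate, 56 among XA samples and 96 to 232 with 1 sample left out. Members near 0 there changed sign without being called: Elane at 0.027 without the filter, 0.16 with the XA covariate, 0.17 among XA samples, 0.046 and 0.016 at resolutions 0.5 and 2.0 and -0.083 to 0.057 with 1 sample left out, Ctsg at 0.0024 with doublets kept, 0.040 and 0.073 at those resolutions and -0.11 to 0.061 with 1 left out, and Mpo at -0.055 to 0.059 with 1 left out. With the members kept in the clustering Cebpe stood at -0.059 and Lyz2 at -0.055. In T/NK-like cells 0 members were called, 3 without the filter, 1 among XA samples, 2 with doublets kept and 0 to 4 with 1 sample left out; genes were 210, against 124 by DESeq2, 395 without the filter, 101 with the XA covariate and 117 to 235 with 1 left out. The stage difference called 0 members by limma and 4 by the edgeR interaction term, and that of Prtn3 ranged from -0.011 to 0.082 with 1 sample left out. The causes were not tested. Shares of cells separated the genotypes for 6 of 10 pairs of member and class, within 1.5 times of that under every other thinning or call. Fits that leave 1 WT sample assume it varies like the others. Both XA fits are of this kind, since they set the KO samples against WT1 alone. Late neutrophil-like cells had no test or alternative, since WT1 and WT2 held 3 and 4 cells. No paired analysis was possible because replicate numbers follow accession order only.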
